A study of Mus musculus with 12 samples.

Results

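Osteoclast differentiation and bone resorption were described through 10 genes, chosen by symbol for their known roles, with earlier results of these data known: Tnfrsf11a, Nfatc1, Acp5, Ctsk, Dcstamp, Ocstamp, Oscar, Calcr, Atp6v0d2 and Itgb3. Of the 10, 9 were among the 18467 gene symbols of the count table, 8 had a count above 0 in some library, and 6 were among the 12882 genes with enough counts to be tested. The expression of Calcr was not analysed here. The counts came from RNA sequencing of macrophages sorted from the bone marrow of female Albino B6 mice, with 12 libraries in 4 groups of 3. In the metastatic groups, E0771 cells, a mouse breast cancer line, had been injected into the caudal artery at 8 weeks of age. The normal groups came from healthy control mice, whose age the labels do not give. General macrophages were sorted as cells carrying CD11b and F4/80, and niche macrophages as cells carrying VCAM1, CD163 and CCR3. The titles call both sorts general, while the series design sets the second apart as specific to the niche. The names general and niche are therefore assigned here by the sorting antigens. Each library of a group came from a different mouse. All metastases came from 1 tumour line, which limits the metastatic groups as a model.

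Osteoclasts are large multinucleated cells that arise by fusion of macrophage-lineage precursors and dissolve bone. M-CSF keeps the precursors alive through its receptor CSF1R, and RANK ligand, made by osteoblast-lineage and other cells, binds RANK on their surface. RANK signalling, together with co-stimulation by receptors that pair with ITAM adaptors, raises the transcription factor NFATc1, which drives the genes of fusion, attachment and resorption. Marrow macrophages and monocytes are among the cells that can enter this path. The 10 genes therefore cover its receptors (Tnfrsf11a, Oscar, Calcr), its main transcription factor (Nfatc1), its fusion proteins (Dcstamp, Ocstamp), its resorption enzymes and proton pump (Acp5, Ctsk, Atp6v0d2) and the integrin by which the mature cell holds on to bone (Itgb3).

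In these libraries the 10 genes did not share 1 pattern. Tnfrsf11a was higher in niche than in general macrophages, without overlap of the libraries, in both normal and metastatic marrow. The same held for 10% of tested genes in normal marrow and for 8.34% in metastatic marrow. Nfatc1 and Itgb3 were detected in all 12 libraries, at levels per length above the other members in 3 of the 4 groups. The resorption genes were near 0 in some libraries and clearly present in others, at times within the same group. In general macrophages of metastatic marrow all 3 reached 1 CPM in every library. Dcstamp, Ocstamp and Oscar were at or near 0 nearly throughout. With edgeR's quasi-likelihood test, no member passed an adjusted p of 0.05 in any comparison of 2 groups.

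The sequences just upstream of 3 members are shown to set a receptor gene beside genes whose windows hold letters that factors of this pathway are known to bind, and were chosen for their matches. The RefSeq promoter table (GRCm38.p6) matched 5 of the 10 members, and bases covered by annotated exons were left out. Capitals mark matches, on either strand, to the NFAT core GGAAA, the AP-1 motif TGANTCA or the E-box of the MITF family, CATGTG or CACGTG. All sequences run from 5′ to 3′ on the strand of the gene. Tnfrsf11a lies at chr1:105780718-105847981 on the plus strand of GRCm38 in GENCODE M21, and the window is chr1:105780473-105780717. Oscar lies at chr7:3609813-3616157 on the minus strand, with the window chr7:3616158-3616407. Acp5 lies at chr9:22126727-22135711 on the minus strand. Of its 3 annotated starts with a window, the one with the most matches, chr9:22130609-22130848 inside the gene, is shown.
Tnfrsf11a: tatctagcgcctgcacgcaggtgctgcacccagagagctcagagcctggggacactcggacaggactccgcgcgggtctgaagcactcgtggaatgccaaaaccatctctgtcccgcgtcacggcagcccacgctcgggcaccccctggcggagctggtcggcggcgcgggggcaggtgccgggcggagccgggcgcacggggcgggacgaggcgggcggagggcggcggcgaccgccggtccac
Oscar: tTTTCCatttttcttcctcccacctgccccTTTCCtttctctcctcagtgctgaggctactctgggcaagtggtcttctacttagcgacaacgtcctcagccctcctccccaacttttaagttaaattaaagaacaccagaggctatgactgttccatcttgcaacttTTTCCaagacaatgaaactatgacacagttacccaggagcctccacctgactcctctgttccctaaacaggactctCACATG
Acp5: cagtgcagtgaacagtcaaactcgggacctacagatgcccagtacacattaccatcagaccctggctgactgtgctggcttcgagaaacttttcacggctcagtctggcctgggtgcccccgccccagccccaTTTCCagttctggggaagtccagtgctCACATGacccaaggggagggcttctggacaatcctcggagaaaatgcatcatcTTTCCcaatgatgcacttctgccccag
The Tnfrsf11a window held 0 matches to any of the 3 motifs. The Oscar window held 3 matches to the NFAT core and 1 E-box, and the Acp5 window held 2 and 1. No match overlapped another. Across the 32851 windows of 250 bases in the table, 55.6% held the NFAT core, 17.6% the E-box and 6.75% the AP-1 motif, so a match to the core is common. The Acp5 windows of the other two starts each held 1 NFAT core and 0 E-boxes. The Ctsk window held 0 matches, and of the 2 Calcr windows 1 held 1 NFAT core.

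Levels are given as CPM, read counts relative to TMM-scaled library totals. Before scaling, the totals ran from 13687957 to 30332442 counts. A count of 0 allows up to 3 counts, or 0.11 to 0.244 CPM depending on the library, counting error only. Between 3 and 6 of the members reached 1 CPM in any 1 library, with 3 to 4 of them in niche macrophages of normal marrow and 5 to 6 in general macrophages of metastatic marrow. The general metastatic libraries were also the deepest, at 24278074 to 30332442 counts, against 13687957 to 20492640 in niche macrophages of normal marrow, and the part of depth in these numbers was not tested. Over the whole table the share of genes at 1 CPM differed in the same direction, with 40.7% to 46.8% in niche libraries of normal marrow and 54.6% to 65.4% in general macrophages of metastatic marrow. Summed over 12 macrophage markers, levels were 1075 to 1233 CPM in general macrophages of normal marrow and 795 to 907 CPM in those from metastatic marrow. The same sum was 5062 to 6091 CPM in niche macrophages of normal marrow and 2288 to 4213 CPM in those from metastatic marrow. All 12 of these markers were above 0 in each group, and they include the antigens used for sorting. A sum over 11 neutrophil markers was 15750 to 26260 CPM in the general macrophage libraries and 10770 to 13890 CPM in the niche libraries, so transcripts of neutrophils were present in both sorts.

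**Figure D1:**
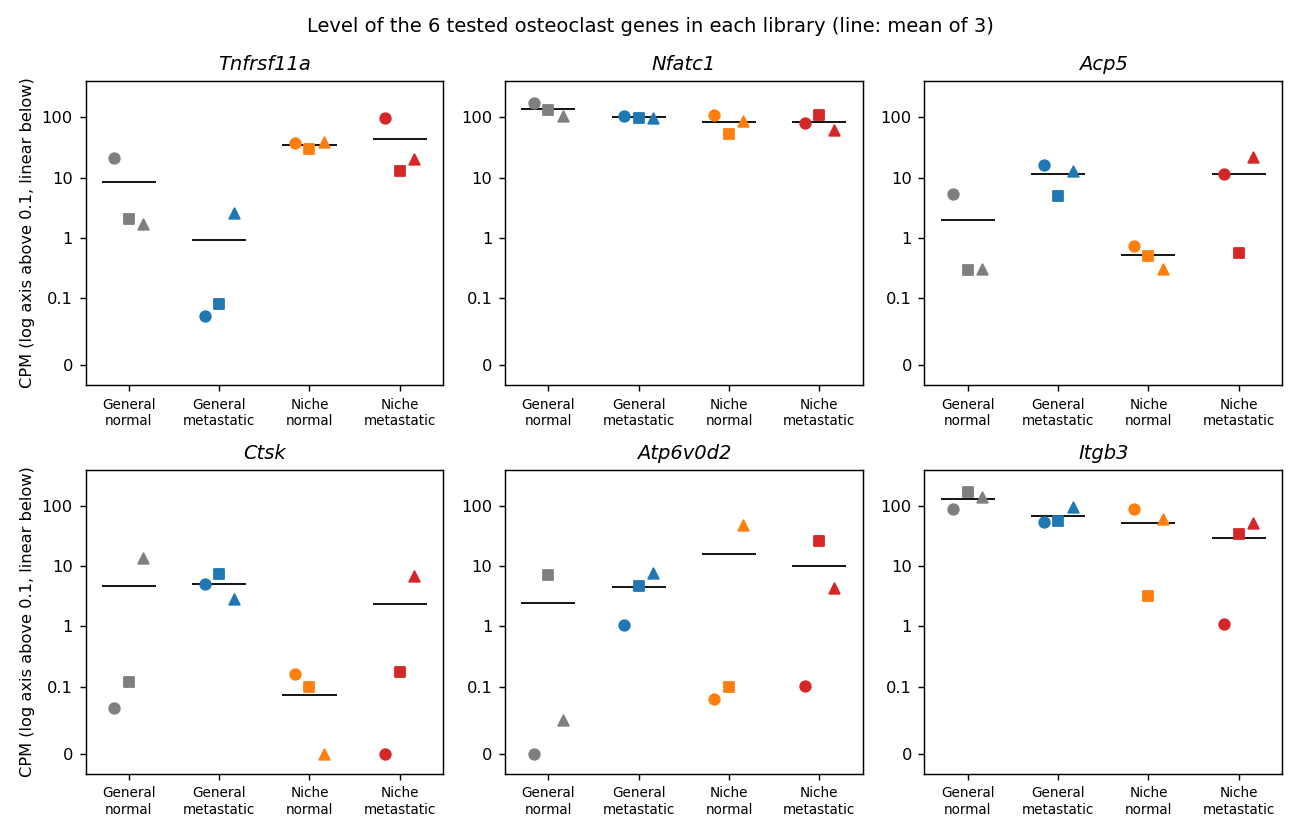
Level of each tested osteoclast gene in each library, in CPM on an axis that is log above 0.1 and linear below, by group, with 3 points a group, 1 point per library and a bar at the group mean. Within each marrow state Tnfrsf11a is higher in the niche libraries, although edgeR did not call it. Nfatc1 lies in a narrow band, and Acp5, Ctsk and Atp6v0d2 run from near 0 to over 10 CPM within single groups.

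Tnfrsf11a encodes RANK, the receptor through which RANK ligand starts osteoclast differentiation. It stood at 21.1, 2.08 and 1.70 CPM (307, 35 and 34 counts) in replicates 1 to 3 of general macrophages of normal marrow. In general macrophages of metastatic marrow it stood at 0.0730, 0.0904 and 2.56 CPM, from 2, 2 and 70 counts. The first 2 of those libraries are under the limit that a count of 0 allows. Niche macrophages of normal marrow had 37.9, 29.2 and 38.7 CPM in libraries A to C, from 467, 588 and 771 counts. Niche macrophages of metastatic marrow had 96.1, 13.02 and 19.96 CPM, from 1903, 298 and 540 counts. Within each marrow state every niche library lay above every general library. Across marrow states the groups did overlap, since replicate 1 of the general macrophages of normal marrow, at 21.1 CPM, was above 2 of the niche libraries from metastatic marrow. Group means were 8.29 ± 11.1, 0.908 ± 1.43, 35.3 ± 5.26 and 43.0 ± 46.1 CPM (SD, n = 3 each) in general normal, general metastatic, niche normal and niche metastatic marrow.

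In metastatic marrow the fitted difference for Tnfrsf11a, niche minus general, was 5.55 ± 1.74 on the log2 scale (SE, 95% interval 1.91 to 9.20). Its unadjusted p was 0.00482 and its adjusted p 0.270 with edgeR's quasi-likelihood test, so it did not pass over all 12882 genes. DESeq2 called it, with a log2 difference of 5.63 and an adjusted p of 0.000816, and limma-voom did not, with 6.70 and an adjusted p of 0.0522. Over all alternatives to the main test the difference ranged from 4.17 to 8.91 and the adjusted p from 0.000816 to 0.744, with DESeq2 the 1 alternative of 22 that passed. Without replicate 3 of the general macrophages of metastatic marrow, which held 70 of that group's counts, the edgeR difference was 8.91, with an adjusted p of 0.0996. Without replicate 1 of the niche macrophages of metastatic marrow, the highest library, it was 4.17, with an adjusted p of 0.728.

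In normal marrow the Tnfrsf11a difference was smaller, 2.09 ± 1.49 on the log2 scale (SE, 95% interval -1.03 to 5.21), and its adjusted p was 0.480 by edgeR. Replicate 1 of the general macrophages of normal marrow set much of that value, and without it the difference was 4.23 with an adjusted p of 0.345. The difference between the 2 niche effects, 3.46 ± 2.08 on the log2 scale (interval -0.90 to 7.82), had an adjusted p of 0.679 in the edgeR interaction test. It was 6.96 without replicate 3 of the general macrophages of metastatic marrow, 2.07 without replicate 1 of the niche macrophages there and 1.33 without replicate 1 of the general macrophages of normal marrow, with edgeR adjusted p of 0.619, 0.946 and 0.994. For metastatic minus normal, Tnfrsf11a in general macrophages had a fitted difference of -3.18 ± 1.56 (SE, interval -6.44 to 0.087), an unadjusted p of 0.0558 and an adjusted p of 0.944 by edgeR, and 0.264 by DESeq2, whose unadjusted p was 0.0108. That difference was -6.59 without replicate 3 of the general macrophages of metastatic marrow and -1.05 without replicate 1 of those from normal marrow. In niche macrophages it was 0.29 ± 1.43 (interval -2.71 to 3.28, edgeR adjusted p 0.987). The groups overlapped in both. A contrast averaged over both marrow states was added after the data were seen. It gave 3.82 ± 1.13 (interval 1.45 to 6.19), an unadjusted p of 0.00320 and an adjusted p of 0.0625 by edgeR. For this average DESeq2 gave 3.85 (adjusted p 0.000481) and limma-voom 4.91 (adjusted p 0.0160), both past the threshold. Without replicate 1 of the general macrophages of normal marrow the average was 4.89, with an edgeR adjusted p of 0.0495. Without replicate 3 of those from metastatic marrow it was 5.44, with an edgeR adjusted p of 0.0211. Leaving out any 1 of the other 10 libraries gave 3.13 to 4.04, with edgeR adjusted p of 0.0625 to 0.204, the lowest value without replicate 1 of the niche macrophages of metastatic marrow. The macrophage marker sum was also higher in niche than in general libraries, as given above. Of its 12 markers edgeR called 6 higher and 0 lower in niche macrophages of normal marrow, and 5 and 0 in metastatic marrow. Itgam, among the 12, had a lower mean in niche macrophages of both marrow states. Within niche macrophages the sum was lower in metastatic marrow, while the fitted Tnfrsf11a difference was 0.29. B-lineage and erythroid sums were higher in niche libraries too, the latter as given with Car2. Of 9 listed B-lineage markers 8 were in the table, with sums of 18.7 to 63.8 CPM in general and 404 to 1376 CPM in niche libraries. The part of these cell types in the Tnfrsf11a difference was not tested. In bulk RNA, more cells of an expressing type and more transcript per cell cannot be told apart.

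Nfatc1, on chromosome 18, encodes the transcription factor that RANK signalling induces and that acts on its own promoter. It was the steadiest member. General macrophages had 172.5, 134.2 and 104.8 CPM in normal marrow and 103.2, 98.8 and 97.1 CPM in metastatic marrow. Niche macrophages had 110.9, 52.8 and 85.5 CPM in normal marrow and 81.1, 110.0 and 61.2 CPM in metastatic marrow. The general macrophages of metastatic marrow lay below all those from normal marrow, by a small margin between 103.2 and 104.8 CPM, and the niche groups overlapped with each other and with the general groups. The fitted difference for metastasis in general macrophages was -0.46 ± 0.41 on the log2 scale (SE, 95% interval -1.31 to 0.39), with an edgeR adjusted p of 1. Niche minus general was -0.72 ± 0.41 (interval -1.58 to 0.13, edgeR adjusted p 0.336) in normal marrow and -0.25 ± 0.41 (interval -1.10 to 0.61, edgeR adjusted p 1) in metastatic marrow. In niche macrophages the metastasis difference was 0.018, with an interval of -0.83 to 0.87. Without 1 library the Nfatc1 value of niche minus general ran from -0.98 to -0.48 in normal and from -0.49 to -0.063 in metastatic marrow, and that of metastasis in general macrophages from -0.62 to -0.26. By the same test neither Nfatc1 nor Tnfrsf11a was called, and by overlap the niche and general libraries stood apart for Tnfrsf11a and overlapped for Nfatc1 in both marrow states.

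Acp5 encodes tartrate-resistant acid phosphatase, the enzyme stained for to count osteoclasts, which some tissue macrophages also make. In normal marrow it stood at 5.36, 0.297 and 0.300 CPM (78, 5 and 6 counts) in general macrophages, and at 0.730, 0.497 and 0.301 CPM (9, 10 and 6 counts) in niche macrophages. In metastatic marrow it stood at 16.1, 4.93 and 12.99 CPM (442, 109 and 355 counts) in general macrophages. In niche macrophages of metastatic marrow it stood at 11.3, 0.568 and 22.3 CPM (223, 13 and 603 counts). Thus 5 of the 6 metastatic libraries were at 4.93 CPM or more, and 5 of the 6 normal libraries were at 0.730 CPM or less. These limits were taken from the same values, and how many other genes split as well was not computed. Each metastatic group still overlapped with its normal group through 1 library, replicate 2 of the niche macrophages of metastatic marrow and replicate 1 of the general macrophages of normal marrow. Group means were 1.98 ± 2.92 and 11.4 ± 5.78 CPM in general macrophages from normal and metastatic marrow, and 0.510 ± 0.215 and 11.4 ± 10.9 CPM in niche macrophages (SD, n = 3 each).

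The metastatic minus normal difference for Acp5 was 2.51 ± 2.17 on the log2 scale in general macrophages (SE, 95% interval -2.04 to 7.06, edgeR adjusted p 1). It was 5.23 without replicate 1 of the general macrophages of normal marrow and 2.01 to 2.88 without any other single library, and 3.79 by limma-voom. In niche macrophages it was 4.47 ± 2.38 (interval -0.50 to 9.44), with an edgeR adjusted p of 0.419 and a DESeq2 adjusted p of 0.0705. It was 3.48 by limma-voom and 3.52 to 5.02 without any 1 library, lowest without replicate 3 and highest without replicate 2 of the niche macrophages of metastatic marrow. Averaged over both populations, a contrast added after the data were seen, it was 3.49 ± 1.60 (interval 0.13 to 6.85). That average had an unadjusted p of 0.0423 and an adjusted p of 0.461 by edgeR, with adjusted p of 0.0552 by DESeq2 and 0.475 by limma-voom. The average was 4.84 without replicate 1 of the general macrophages of normal marrow and 3.02 to 3.77 without any other single library, with edgeR adjusted p of 0.377 to 0.593 over all 12. Between the populations Acp5 differed by 0.0031 on the log2 scale in metastatic marrow, with an interval of -4.296 to 4.302 that covers large differences in either direction. In normal marrow niche minus general was -1.95 (interval -6.42 to 2.52, edgeR adjusted p 0.718). The exons of Acp5 overlap an antisense transcript, 6530413G14Rik, and the strand setting of the counting is not given in the sources used here. That transcript had 73 counts in replicate 2 of the niche macrophages of metastatic marrow and 0 in the other 11 libraries. In that library Acp5 was at 0.568 CPM, the lowest of the metastatic libraries, and whether reads were shared between the pair was not tested.

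Ctsk encodes cathepsin K, the protease that cuts bone collagen, at chr3:95499256-95509362 on the plus strand. Its counts were 1, 2 and 277 in general macrophages of normal marrow, and 139, 162 and 79 in those from metastatic marrow. They were 2, 2 and 0 in niche macrophages of normal marrow, and 0, 4 and 185 in those from metastatic marrow. All 3 general metastatic libraries, at 5.07, 7.32 and 2.89 CPM, held the transcript. The only other libraries with more than 4 counts were 1 of general macrophages of normal marrow, at 13.8 CPM, and 1 of niche macrophages of metastatic marrow, at 6.84 CPM. The niche minus general difference in normal marrow was -5.68 ± 3.14 on the log2 scale (SE, 95% interval -12.24 to 0.89, edgeR adjusted p 0.324), a fitted value that rests on 4 counts in the niche group and on 1 general library. Without replicate 3 of the general macrophages of normal marrow it was -0.12, with an edgeR adjusted p of 1, and limma-voom gave -2.93 with all libraries. The metastatic minus normal difference in niche macrophages was 4.68 ± 2.99 (interval -1.58 to 10.94, edgeR adjusted p 0.524) and was 0.034 without replicate 3 of the niche macrophages of metastatic marrow. In general macrophages it was 0.12 (interval -5.22 to 5.47). Niche minus general in metastatic marrow was -1.12 (interval -6.53 to 4.29).

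Atp6v0d2 encodes the d2 subunit of the vacuolar proton pump, by which osteoclasts acidify the bone surface and which also takes part in their fusion. The gene lies at chr4:19876841-19922605 on the minus strand. Its counts were 0, 121 and 1 in general macrophages of normal marrow, and 29, 102 and 209 in those from metastatic marrow. They were 1, 2 and 948 in niche macrophages of normal marrow, and 2, 598 and 118 in those from metastatic marrow. As with Ctsk, all 3 general metastatic libraries held the transcript, at 1.06, 4.61 and 7.65 CPM, while each other group held at least 1 library with 2 counts or fewer. The highest levels were in single niche libraries, 47.6 CPM in library C from normal marrow and 26.1 CPM in replicate 2 from metastatic marrow. None of the 4 comparisons was called by edgeR (adjusted p 0.664 to 1). Niche minus general was 2.72 on the log2 scale in normal marrow and -4.64 without niche library C, and 1.20 in metastatic marrow and -0.99 without niche replicate 2. The metastatic minus normal difference in niche macrophages was -0.64 and turned to 6.72 without library C.

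All 3 resorption genes reached 1 CPM together in 4 of the 12 libraries, the 3 of general macrophages of metastatic marrow and replicate 3 of niche macrophages there. In 6 other libraries only 1 of the 3 did, and in 2 niche libraries of normal marrow none did. Ctsk was highest in replicate 3 of general macrophages of normal marrow, where Acp5 had 6 counts and Atp6v0d2 had 1. Atp6v0d2 was highest in niche library C from normal marrow, where Acp5 had 6 counts and Ctsk had 0. Acp5 and Ctsk were both high in replicate 3 of niche macrophages of metastatic marrow, at 22.3 and 6.84 CPM, with Atp6v0d2 at 4.36 CPM. The sum of the 3 was 16.9 to 23.5 CPM in general macrophages of metastatic marrow and 5.43 to 14.2 CPM in those from normal marrow. It was 0.696 to 47.9 CPM in niche macrophages of normal marrow and 11.4 to 33.5 CPM in those from metastatic marrow. The general macrophage sums did not overlap between marrow states, and the niche sums did. In general macrophages each of the 3 genes alone did overlap, while 7.27% of tested genes were higher in metastatic marrow without overlap. No such share was computed for sums of 3 genes. In normal marrow the general macrophage sum came mostly from Acp5 in replicate 1, Atp6v0d2 in replicate 2 and Ctsk in replicate 3.

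Itgb3 encodes the β3 integrin chain, which pairs with αV (Itgav) in the osteoclast's vitronectin receptor and with αIIb (Itga2b) in the platelet fibrinogen receptor. It lies at chr11:104608000-104670476 on the plus strand. General macrophages had 89.6, 170.5 and 139.1 CPM in normal marrow and 53.5, 55.5 and 95.5 CPM in metastatic marrow. Niche macrophages had 89.5, 3.23 and 62.0 CPM in normal marrow and 1.11, 34.6 and 53.0 CPM in metastatic marrow. The niche libraries were below the general libraries in both marrow states, but the nearest libraries were almost equal, at 89.5 against 89.6 CPM and at 53.0 against 53.5 CPM. In each niche group 1 library was far under the other two, library B from normal marrow with 65 counts and replicate 1 from metastatic marrow with 22. Niche minus general was -1.37 ± 0.96 on the log2 scale in normal marrow (SE, 95% interval -3.37 to 0.64, edgeR adjusted p 0.469) and -1.20 ± 0.96 in metastatic marrow (interval -3.20 to 0.79, edgeR adjusted p 0.987). These Itgb3 values were -2.73 and -1.79 by limma-voom. Leaving out niche library B moved the one in normal marrow to -0.81, and leaving out niche library A moved it to -2.02. In metastatic marrow it was -0.64 without niche replicate 1 and -1.93 without niche replicate 3.

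The niche libraries lay above the general libraries for the integrin partner Itgav, without overlap in either marrow state, and edgeR called the difference in normal marrow. It stood at 102, 107 and 93.3 CPM in general and 325, 264 and 415 CPM in niche macrophages of normal marrow. Its difference was 1.73 on the log2 scale, with an edgeR adjusted p of 0.00343. For Itgav in metastatic marrow the libraries stood at 114, 137 and 110.1 CPM in the general and 257, 150.3 and 194.5 CPM in the niche sort, a log2 difference of 0.74 that was not called (edgeR adjusted p 0.523). Its exons overlap those of Gm13684 on the other strand, so reads of the pair may not be told apart. The platelet partner Itga2b had 0 to 1 counts in the 3 general libraries of normal marrow, where Itgb3 was highest, and 118, 0 and 143 counts in those of metastatic marrow. The platelet chemokine gene Pf4 had 0 to 2 counts in 11 libraries and 84 in replicate 3 of the general macrophages of metastatic marrow. Of 11 listed megakaryocyte markers 9 were in the table, and their sum was 0.343 to 58.9 CPM in general macrophages and 12.9 to 93.2 CPM in niche macrophages of normal marrow. Gp9 and Gp1bb were at 0 in both of these groups. In metastatic marrow the sum was 0.452 to 31.4 CPM in general and 0.253 to 51.4 CPM in niche macrophages. Itga2b was highest in niche library C from normal marrow, at 504 counts or 25.3 CPM, the library with the highest Atp6v0d2.

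The fusion genes were almost undetected. Dcstamp, which encodes the membrane protein needed for osteoclast precursors to fuse, had 6 counts in replicate 3 of the general macrophages of metastatic marrow, 1 in niche library A from normal marrow and 0 in the other 10 libraries. Ocstamp, a second such membrane protein, had 149 counts, or 5.44 CPM, in replicate 1 of the general macrophages of metastatic marrow. It had 1 count in each of 2 other general libraries and 0 elsewhere. Oscar, the collagen-binding receptor that gives the ITAM co-stimulatory signal, had 0 counts in all 12 libraries, which allows up to 3 counts in each. Neither Dcstamp, Ocstamp nor Oscar passed the low-count filter, so the 6 tested members stand for those with higher counts and not for all 10.

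Per length of the exons, in CPM per kilobase, the order of the members differed among groups. In general macrophages Itgb3 and Nfatc1 led, with 22.5 and 18.4 in normal marrow, then 11.6 and 13.4 in metastatic marrow. There Tnfrsf11a was at 1.39 and 0.152 and the 3 resorption genes were between 0.887 and 5.59. In niche macrophages of normal marrow Nfatc1 (11.1), Itgb3 (8.74), Tnfrsf11a (5.90) and Atp6v0d2 (5.87) were followed by Acp5 (0.251) and Ctsk (0.0577). In niche macrophages of metastatic marrow Nfatc1 (11.3) was followed by Tnfrsf11a (7.19), Acp5 (5.60), Itgb3 (5.01), Atp6v0d2 (3.76) and Ctsk (1.55). Of the 24 pairs of neighbours in these orders, members with a count above 0 included, 21 overlapped over the libraries of the group. The 3 pairs that stood apart were Nfatc1 above Ctsk in general macrophages of normal marrow, Itgb3 above Acp5 in those from metastatic marrow, and Acp5 above Ctsk in niche macrophages of normal marrow. For scale, Csf1r, which encodes the M-CSF receptor of the lineage, had 16.8 and 14.7 CPM per kilobase in general and 30.6 and 23.1 in niche macrophages from normal and metastatic marrow.

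**Figure D2:**
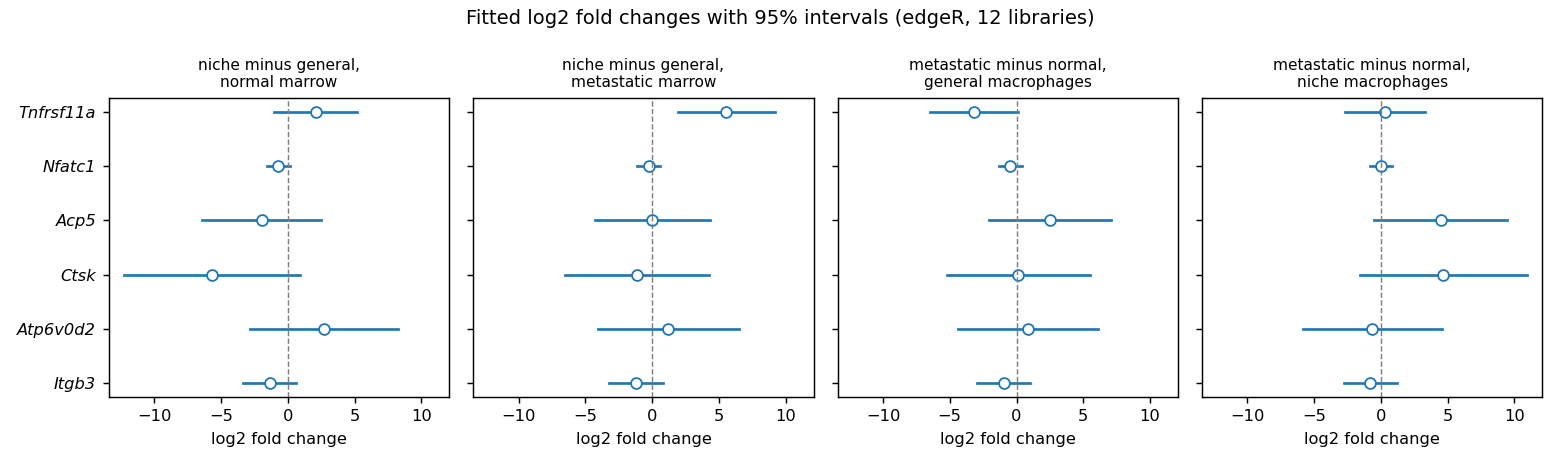
Fitted log2 fold change of each tested osteoclast gene in each comparison of 2 groups, with 95% intervals from edgeR's quasi-likelihood test. Every interval includes 0 except that of Tnfrsf11a for niche minus general macrophages in metastatic marrow, 1.91 to 9.20, and the intervals of Acp5, Ctsk and Atp6v0d2 span several log2 units.

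Counted over the 6 tested members, edgeR called 0 in normal marrow for niche minus general, where 2.47% of all tested genes were called. It called 0 in metastatic marrow, where 0.831% were called, 0 for metastasis in general macrophages (0.0155% of genes) and 0 for metastasis in niche macrophages (0.00776% of genes). At an unadjusted p under 0.05 edgeR passed 0, 1, 0 and 0 members in these 4 comparisons, against 19%, 8.6%, 5.12% and 12.7% of all tested genes. DESeq2 called 0, 1, 0 and 0, with Tnfrsf11a the 1, against 15.4%, 4.05%, 1.19% and 8.06% of genes. The limma-voom fit called 0 in each, against 1.44%, 1.38%, 0.179% and 0.0854% of genes. In the interaction test all 3 tools called 0 members, with 0% of genes called by edgeR, 0% by limma-voom and 3.46% by DESeq2, and 0 members passed an unadjusted p under 0.05 in edgeR, against 7.89% of genes. In the contrast averaged over marrow states edgeR called 0 members (4.21% of genes), while DESeq2 (14.1% of genes) and limma-voom (3.71% of genes) each called 1, Tnfrsf11a. It was also the 1 member with an unadjusted edgeR p under 0.05, against 18.2% of genes. In the average over populations all 3 called 0, against 0.0543%, 4.99% and 0.0854% of genes for edgeR, DESeq2 and limma-voom, and Acp5 was the 1 member with an unadjusted edgeR p under 0.05, against 10.5% of genes.

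Groups without overlap were found for 2 of the 6 members between populations in each marrow state. Tnfrsf11a was higher in niche macrophages, as were 10% of tested genes in normal and 8.34% in metastatic marrow. Itgb3 was lower, as were 8.78% and 8.85% of tested genes. Between marrow states 1 member did not overlap, Nfatc1, which was lower in general macrophages of metastatic marrow, as were 5.64% of tested genes. No member was higher there without overlap (7.27% of tested genes), and none was higher (5.63%) or lower (7.11%) in the niche macrophages. The median log2 difference of the 6 members was -1.05 for niche minus general in normal marrow, beside 0.19 over all tested genes, and -0.12 beside 0.04 in metastatic marrow. For metastatic minus normal it was -0.17 beside -0.01 in general macrophages and 0.15 beside -0.17 in niche macrophages. The medians combine members of opposite sign: in both marrow states Tnfrsf11a and Atp6v0d2 had positive fitted differences between populations, while Nfatc1, Ctsk and Itgb3 had negative ones. For Atp6v0d2 those signs rest on 1 library in each marrow state, as given above.

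The members differed in their spread between libraries of a group, in which mice and library preparation cannot be told apart. The biological coefficient of variation, the fitted relative spread between libraries of a group, was 0.417 for Nfatc1, 0.796 for Itgb3, 1.15 for Tnfrsf11a, 1.49 for Acp5, 1.81 for Atp6v0d2 and 1.91 for Ctsk, beside a median of 1.24 over all tested genes. The integrin, the transcription factor and the receptor were thus steadier than the median gene, and the 3 resorption genes more variable. Counts of 3 or fewer in 1 library and 100 or more in another were found for Tnfrsf11a, Ctsk and Atp6v0d2, 3 of the 6 tested members (50%). The same held for 6420 of the 12882 tested genes (49.8%), so such jumps were as common over the whole table. In simulated counts for niche minus general macrophages in metastatic marrow, drawn at the measured spread of each of 12882 genes, the test called 27 of 100 genes given a 4-fold change and 69 of 100 given a 16-fold change. The changes were increases in niche macrophages, placed only in genes above a minimum mean level. Ctsk, with a mean of 3.05 CPM, was below that level, so these shares do not cover it.

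**Figure D3:**
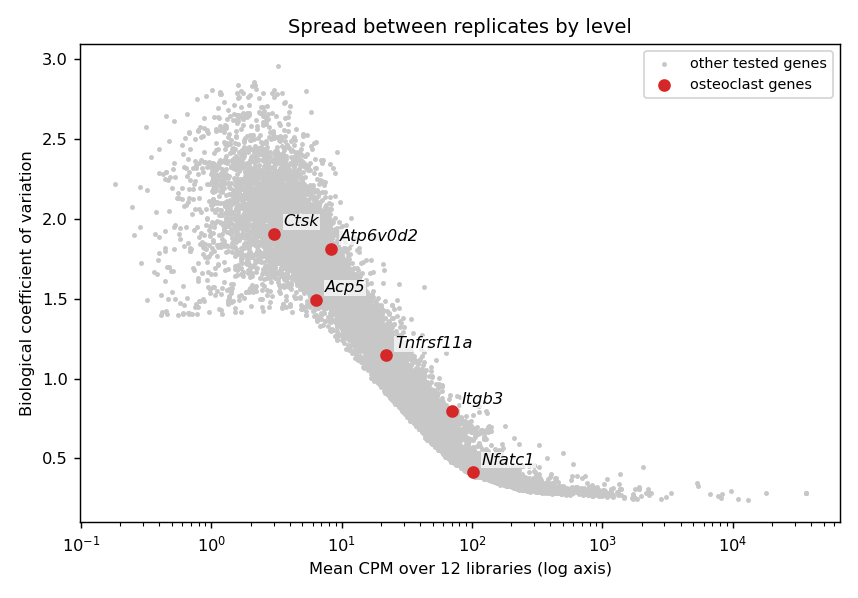
Biological coefficient of variation of the tested osteoclast genes against the mean level, over all 12882 tested genes as a background. Nfatc1 (0.417) and Itgb3 (0.796) lie under the median of 1.24, and Atp6v0d2 (1.81) and Ctsk (1.91) above it.

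Beyond the members, 6 lists of other genes of the pathway held 69 tested genes. EdgeR called 11 of them (15.9%, beside 2.47% of all tested genes) for niche minus general in normal marrow and 4 (5.8%, beside 0.831%) in metastatic marrow. DESeq2 called 18 and 7 (15.4% and 4.05% of all genes) and limma-voom 9 and 7 (1.44% and 1.38% of all genes). The lists were chosen with earlier results known. For metastasis edgeR called 0 of the 69 in general and 0 in niche macrophages, with 7 (10.1%) and 9 (13%) at an unadjusted p under 0.05, beside 5.12% and 12.7% of all genes. For these 2 comparisons DESeq2, which gave an adjusted p for 68 of the 69, called 2 (2.94%) and 3 (4.41%), beside 1.19% and 8.06% of all genes. Limma-voom called 1 (1.45%) and 0, beside 0.179% and 0.0854% of all genes. The gene that both called in general macrophages was Lilrb4a, an inhibitory receptor, with 1066 to 1696 CPM in normal and 410.1 to 770.5 CPM in metastatic marrow. The counts per list below are edgeR's. Of the ligand and M-CSF axis, 3 of 5 genes were in the table, 2 were tested and none was called in any comparison of 2 groups, nor did either reach an unadjusted p under 0.05. RANK ligand (Tnfsf11) and its decoy osteoprotegerin (Tnfrsf11b) were not analysed here. Csf1r had 106, 71.4 and 114 CPM in general and 282, 87.5 and 159 CPM in niche macrophages of normal marrow, a log2 difference of 0.86 with an edgeR adjusted p of 0.329. In metastatic marrow its difference was 0.66, with an edgeR adjusted p of 0.931. Its exons overlap those of Hmgxb3 on the other strand.

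Of 21 tested genes of RANK and ITAM signalling, 0 rose and 1 fell in niche macrophages of normal marrow by edgeR. There DESeq2 also called Trem2 and Src, and limma-voom also called Trem2, both higher in niche macrophages, Src being a kinase needed for the osteoclast's ruffled border and named after its values were seen. Src stood at 0.206, 0.237 and 0.4995 CPM in general and 85.4, 48.9 and 0.251 CPM in niche libraries of normal marrow, which overlapped through niche library C. Cbl, which encodes a ubiquitin ligase of this signalling, had 1343 to 1590 CPM in general and 617 to 788 CPM in niche macrophages, a log2 difference of -1.05 (edgeR adjusted p 0.00556). In metastatic marrow none of the 21 was called, 3 had an unadjusted p under 0.05, and Cbl had -0.58 (edgeR adjusted p 0.368). Limma-voom did call Cbl there, with an adjusted p of 0.00931, and DESeq2 called Blnk. Trem2, an ITAM-paired receptor of macrophages and osteoclast precursors, had 0, 0 and 1 counts in general macrophages of normal marrow and 24.4, 13.2 and 14.1 CPM in those from metastatic marrow. Those groups did not overlap, and the edgeR adjusted p was 0.944 while that of DESeq2 was 0.000804. In niche macrophages Trem2 went from 43.3, 20.4 and 13.4 CPM in normal marrow to 34.8, 0 and 0.0370 CPM in metastatic marrow, so 2 of the 3 metastatic libraries were near 0. The medians of the 21 genes were 0.16 and -0.38 for niche minus general in normal and metastatic marrow, beside 0.19 and 0.04 over all genes.

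Of 11 transcription factors that act with or under NFATc1, 0 rose and 1 fell in niche macrophages of normal marrow. Fosl2, a partner in AP-1, had 567 to 619 CPM in general and 114 to 315 CPM in niche macrophages, a log2 difference of -1.65 (edgeR adjusted p 0.0188). In metastatic marrow none was called by any of the 3 tools, 2 had an unadjusted p under 0.05 by edgeR, and Fosl2 was at -1.03 (edgeR adjusted p 0.408). Leaving out any 1 general library of normal marrow, or niche library A or C, ended the Fosl2 call, with adjusted p of 0.0519 to 0.0707 over the 6 alternatives that lost it. The list medians were 0.14 and -0.18 in normal and metastatic marrow. For metastasis Jun, a partner of the Fos proteins in AP-1, had the smallest p of the list in both populations, at 0.95 in general (edgeR adjusted p 0.944) and 1.25 in niche macrophages (edgeR adjusted p 0.381).

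Of 10 tested inhibitors of osteoclast differentiation, 2 rose and 0 fell in niche macrophages of normal marrow. Irf8, a factor of the monocyte lineage that binds and restrains NFATc1, had 39.4 to 60.2 CPM in general and 131 to 206 CPM in niche macrophages, a log2 difference of 1.77 (edgeR adjusted p 0.0478). The Irf8 call was lost in 15 of 20 alternatives, with adjusted p up to 0.213, among them the removal of any 1 library other than niche library B of normal marrow or niche replicate 2 of metastatic marrow. In metastatic marrow none was called by any of the 3 tools, and 2 had an unadjusted p under 0.05 by edgeR. The list medians were -0.26 and 0.13 in normal and metastatic marrow. Irf8 is also expressed by macrophages in general, whose marker sum was higher in niche libraries. Monocyte markers, 10 of 10 in the table and none at 0 in a whole group, went the other way, with sums of 6101 to 6950 CPM in general and 1509 to 2238 CPM in niche libraries. Of these 10, edgeR called 6 lower in niche macrophages of normal marrow and 5 lower in those of metastatic marrow, and they moved with the lower Cbl, Fosl2, Cd44 and Itgb3 levels. The part of macrophages and monocytes in these differences was not tested.

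Of 9 tested genes of cell fusion, 3 rose and 1 fell in niche macrophages of normal marrow, and 2 rose and 0 fell in metastatic marrow by edgeR. In metastatic marrow DESeq2 and limma-voom each called 4, adding Sirpa and Cd44, which stood at 918 to 1177 CPM in general and 571 to 729 CPM in niche libraries there. Myo10, an unconventional myosin of cell protrusions, had 0.893, 13.4 and 11.3 CPM in general and 312, 216 and 226 CPM in niche macrophages of normal marrow. Its log2 difference was 4.88 (edgeR adjusted p 0.000564) there and 4.52 in metastatic marrow (edgeR adjusted p 0.00156). Cd81, a tetraspanin, rose by 1.89 in normal marrow (edgeR adjusted p 0.00120) and by 1.39 in metastatic marrow (edgeR adjusted p 0.0269). Cd44, the hyaluronan receptor, fell by 1.04 in normal marrow (edgeR adjusted p 0.0144). The Cd81 call in metastatic marrow was lost without any 1 of the general libraries or niche replicates 1 or 3 there (edgeR adjusted p 0.0610 to 0.198), and the Cd44 call without general replicate 2 or niche library C of normal marrow (edgeR adjusted p 0.0594 to 0.0932). The fourth called gene was Sirpa, the receptor for CD47, named after its values were seen, at 0.91 (edgeR adjusted p 0.0439). The 3 genes that rose did so in niche libraries in which Dcstamp and Ocstamp had at most 1 count, and each of the 3 also serves processes other than fusion, Cd81 as part of the B cell co-receptor. The B-lineage, erythroid and macrophage marker sums were higher in the same niche libraries, as given with Tnfrsf11a, Car2 and the library totals, and their part in these rises was not tested. The medians of the 9 genes were -0.11 and -0.09, beside 0.19 and 0.04 over all genes.

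Of 16 genes of acid secretion and resorption, 2 rose and 1 fell in niche macrophages of normal marrow, and 1 rose and 1 fell in metastatic marrow. Car2, carbonic anhydrase II, which supplies protons in osteoclasts and is also abundant in red cell precursors, had 31.9, 14.7 and 15.8 CPM in general and 158, 157 and 150.2 CPM in niche macrophages of normal marrow. In metastatic marrow it had 10.4, 9.76 and 8.49 CPM in general and 185, 175 and 115 CPM in niche macrophages. The groups did not overlap, and the differences were 2.90 (edgeR adjusted p 0.00145) and 4.05 (edgeR adjusted p 0.000114). Erythroid markers moved with it: 9 of 10 listed were in the table, none at 0 in a whole group, and their sum was 12.7 to 106 CPM in general and 536 to 1551 CPM in niche libraries. Their part in the Car2 difference was not tested. Mmp9, a gelatinase of osteoclasts and of neutrophils, had 1901 to 2414 CPM in general and 817 to 1159 CPM in niche macrophages of normal marrow. In metastatic marrow it had 1357 to 2183 CPM in general and 559 to 715 CPM in niche macrophages. Its log2 difference was -1.17 in normal marrow (edgeR adjusted p 0.00579). The metastatic value was -1.495 (edgeR adjusted p 0.000983). The neutrophil marker sum was also lower in niche libraries, as given above. The part of neutrophil transcripts in the Mmp9 difference was not tested. The third called gene of normal marrow was Itgav, described with Itgb3. The medians of the 16 genes were -0.01 and 0.19.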

How the data were processed

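Marrow of the femur and tibia was flushed out and rid of red cells by lysis before live cells were sorted, and ribosomal RNA was removed from total RNA, per the labels' protocols. Expected counts, estimated per gene and not normalized, were deposited by the authors in 1 table, and 73.9% of them were whole numbers. The submitters' processing notes name Partek, STAR 2.7.3a, DESeq2 1.40.2, R 4.3.1 and mm10, and the counting program, annotation and strand setting are not given in the sources used here. Columns of niche macrophages from normal marrow carry other replicate numbers than the titles and are called A to C.

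Counts were rounded, filtered with filterByExpr, TMM-scaled and fitted over all 12 libraries with 4 group means in edgeR 4.0.16 (R 4.3.3, quasi-likelihood test). P-values were adjusted by Benjamini-Hochberg over 12882 genes, and genes under 0.05 are called. Library pairs of a group differed by at least 139 chi-square units per degree of freedom, so each counted once. Where standard errors are given, they come from the F statistic. Alternatives were RLE scaling, library totals, other filters, DESeq2 1.42.0, limma-voom (limma 3.58.1), only the compared libraries, a replicate block, removal of haemoglobin, immunoglobulin, mitochondrial and small RNA genes, and leaving out each library. The averaged contrasts and a fit of the block's 3 groups without it were added after the data were seen. The procedure was tested on simulated data.

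The members and lists were chosen with earlier results of these data known. All members are named. Of each pathway list, up to 3 called genes with the smallest p are named per comparison, or the 1 with the smallest p where none was called. Coordinates and exon lengths come from GENCODE M21, and promoters from RefSeq. A few genes that these rules select are not reported here.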

Additional observations from a re-analysis of the deposited data

How the results depend on the processing

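Tnfrsf11a, Acp5, Ctsk and Atp6v0d2 each had 10 counts or fewer in some library, Tnfrsf11a also in the deepest one, and the spread between libraries was wide. Of 652 alternative values for the members, 611 kept their direction and side of the threshold, 36 reversed and 5 became called, all 5 for Tnfrsf11a. The number of members called, 0 with edgeR, became 1 with DESeq2 for niche minus general in metastatic marrow. For the average over marrow states it became 1 with DESeq2 and 1 with limma-voom, and 0 to 1 when 1 library was left out. With library totals alone the median of all genes shifted by 0.24 on the log2 scale both for niche minus general in metastatic marrow and for metastasis in niche macrophages.

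Replicate numbers were shared by 3 groups. Between these groups, same-numbered libraries had correlations of -0.0036 to 0.033, and libraries of different numbers -0.0356 to 0.0241. With 3 libraries a group and so wide a spread, these values cannot decide whether same-numbered libraries were paired. With a replicate block, 0 members were called. In metastatic marrow niche minus general was then -0.66 for Acp5, -1.38 for Atp6v0d2 and -5.615 for Ctsk, the last against -1.12 in the main fit. Metastasis in general macrophages gave 4.82 for Ctsk and 4.6 for Atp6v0d2 with the block, against 0.12 and 0.88 in the main fit.

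Some values changed sign, and the cause was not tested. For niche minus general in metastatic marrow, Acp5 (0.0031) was -0.00622 without a filter, -0.94 with limma-voom, -0.000675 with haemoglobin and similar genes removed and -0.00387 in the compared libraries alone. For metastasis in niche macrophages, Nfatc1 was -0.0094 with RLE and -0.0092 with DESeq2, and limma-voom gave -0.45 for Tnfrsf11a and 1.95 for Atp6v0d2. For the interaction, limma-voom gave -0.31 for Acp5 and -0.53 for Ctsk, against 1.95 and 4.56 with edgeR.

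With 1 library left out, niche minus general in normal marrow ran from -2.46 to 0.76 for Acp5 and from -4.64 to 8.95 for Atp6v0d2, and in metastatic marrow from -0.94 to 0.56 and from -0.99 to 1.85. For metastasis in general macrophages, Ctsk ran from -0.45 to 5.68 and Csf1r from -0.73 to 0.063. In niche macrophages, Csf1r ran from -0.81 to 0.10, Nfatc1 from -0.23 to 0.27, Atp6v0d2 from -2.85 to 6.72 and Tnfrsf11a from -1.11 to 0.71. The interaction ran from -0.76 to 2.51 for Acp5, -0.57 to 0.81 for Itgb3, -1.01 to 5.27 for Ctsk and -7.76 to 5.83 for Atp6v0d2.

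Genes called in all were 318 for niche minus general in normal marrow, and 1825 with DESeq2, 186 with limma-voom and 163 with only the compared libraries, and 176 to 402 with 1 library left out. In metastatic marrow they were 107, and 480 with DESeq2, 178 with limma-voom and 66 to 121 with 1 library left out. For metastasis they were 2 in general macrophages (141 with DESeq2, 23 with limma-voom, 5 without a filter, 0 with library totals), and 0 to 4 with 1 library left out. In niche macrophages they were 1 (954 with DESeq2, 11 with limma-voom, 3 without a filter, 2 with genes removed, and 0 with RLE, library totals or only the compared libraries), and 0 to 66 with 1 library left out. The interaction had 0 calls, and 410 with DESeq2 and 0 to 16 with 1 library left out. Among pathway genes, calls were lost for Fosl2 in 6, Cd81 in metastatic marrow in 5, Cd44 in 2 and Mmp9 in normal marrow in 1 of the alternatives.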

Other observations

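For each tested member, the 2 genes with the most similar profile over the 12 libraries were taken from 8145 genes whose mean reached 10 CPM. The measure was the root mean square difference of log2(CPM + 1), centred on each gene's mean. It is a description without a test.

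Tnfrsf11a was nearest to Ms4a7, at a difference of 0.68, and Epb41l1, at 0.87, where the member's own spread around its mean was 2.10. Ms4a7 encodes a membrane protein of macrophages. Nfatc1, with a spread of 0.43, had Zfp516 (0.25) among its nearest 2. Itgb3, with a spread of 1.86, had Ncbp3 (0.70) among its nearest 2.

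By this difference, not scaled to each gene's own spread, the resorption genes had no neighbour so close. Acp5, with a spread of 1.60, was nearest to Oasl1 and Prdm4, at 1.05 and 1.06. Ctsk (1.43) was nearest to Crispld2 (0.98) and Cdkn2c (1.06), and Atp6v0d2 (1.88) to Rpap1 (0.98) and Sf3b6 (0.99).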
